A study of Mus musculus with 11 samples.

Results

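The genes described here are 8 components of the Hedgehog pathway, namely the ligand Dhh, the receptor Ptch1, the signal transducer Smo, the inhibitors Hhip and Sufu, and the transcription factors Gli1, Gli2 and Gli3. They were chosen by symbol, as the rows whose Ensembl identifiers carry these names in the GENCODE M21 annotation, and they make up 8 of the 23074 genes in the table. RNA-Seq was performed on decapsulated whole testes of 5 wild type and 6 Rfx2-/- mice at postnatal day 21 (P21), all on a mixed background of C57BL/6, 129/Sv and FVB/N. Wild type mice are replicates 1 to 5 and Rfx2-/- mice are replicates 6 to 11. The Rfx2-/- mice carry a null allele of the transcription factor RFX2, from which exon 7, with most of the coding sequence for the DNA-binding domain, was excised by a broadly expressed actin-promoter Cre, so the allele is lost in every cell type and not in germ cells alone. Earlier immunohistology cited by the paper found RFX2 protein in the germ line only, with none detected in Sertoli cells. The mixed background line is described as keeping the neomycin selection cassette. Neither litters nor further treatments are given in the labels.

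In the testis, Desert hedgehog (DHH) is made by Sertoli cells, the supporting cells of the seminiferous tubule. It acts on cells around and between the tubules, among them Leydig cells and peritubular myoid cells, and is known for its role in their differentiation and in male fertility. Without ligand, the receptor PTCH1 holds the membrane protein SMO inactive. Binding of ligand releases SMO, which acts through the primary cilium to free the GLI factors from their inhibitor SUFU. GLI1, PTCH1 and HHIP are themselves made in response to the signal, and PTCH1 and HHIP bind the ligand and so dampen the response.

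For Rfx2 itself, wild type replicates 1 to 5 gave 472, 380, 218, 368 and 191 CPM, that is, reads relative to the scaled size of the library, and the value lay between 282 and 324 CPM in the 6 Rfx2-/- testes. The counts cover all exons of the gene and do not show exon 7, so they do not check the genotype labels. Total counts lay between 26925157 and 29769483 in wild type and between 22232097 and 27116903 in Rfx2-/- libraries. Wild type replicates 3 and 5 stood apart from the other mice. They had the highest TMM factors of the 11 libraries, 1.18 each against 0.894 to 1.02 in the others, and they were the highest pair of mice for 26.9% and the lowest pair for 29.4% of all 15745 genes tested. Wild type replicate 1 had the highest round spermatid marker score, 5.36 on the log2 scale explained below. Rfx2-/- replicates 7 and 6 followed at 5.26 and 3.38. Wild type replicates 3, 4 and 5 were the lowest, at -0.176, -0.173 and -1.27. For the 8 genes and the comparisons with marker scores, values are also given without replicates 3 and 5, an alternative chosen after seeing the data.

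None of the 8 genes was called different between genotypes. In the quasi-likelihood test of edgeR, adjusted by Benjamini-Hochberg, 2.67% of all genes tested were called at an adjusted p of at most 0.01, 1.94% as lower and 0.73% as higher in Rfx2-/- testis, and 0 of the 8 were. DESeq2, which called 13.1% of genes, and voom, which called 6.66%, also called 0 of the 8 at that threshold. At an unadjusted p under 0.05, 5 of the 8 passed, 4 lower and 1 higher, where 41.8% of all genes passed, 23.7% lower and 18.1% higher. At an adjusted p of at most 0.05, which 14.9% of genes passed, 8.78% lower and 6.15% higher, the number was 0 in edgeR with all mice. It was 3 in DESeq2, where 30.5% of all genes passed this threshold, namely Smo (adjusted p = 0.0166), Sufu (0.0317) and Dhh (0.0396), and the same 3 in voom, where 22.1% of all genes did (adjusted p = 0.0332, 0.0447 and 0.0420). In both, Smo and Dhh were lower and Sufu higher. Without wild type replicate 1, 5 of the 8 passed it in edgeR, with Dhh, Ptch1, Smo and Gli3 lower and Sufu higher. In that fit 18 of 44 other pathway genes, described below, passed too, against 6 with all mice. The share of all genes in that fit is not given here. Fitted log2 fold changes of Rfx2-/- over wild type were below 0 for 7 of the 8, Sufu being the exception, against 54.8% of all genes, and their median was -0.44 beside -0.05 over all genes. The genotypes overlapped for each of the 8 genes, while all Rfx2-/- mice lay below all wild type mice for 5.2% and above them for 6.5% of all genes. Wild type replicates 3 and 5 were the highest pair of the 11 mice for 7 of them and the lowest pair for Sufu. Since whole testis was measured, fewer cells of a type and less RNA per cell cannot be told apart.

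**Figure D1:**
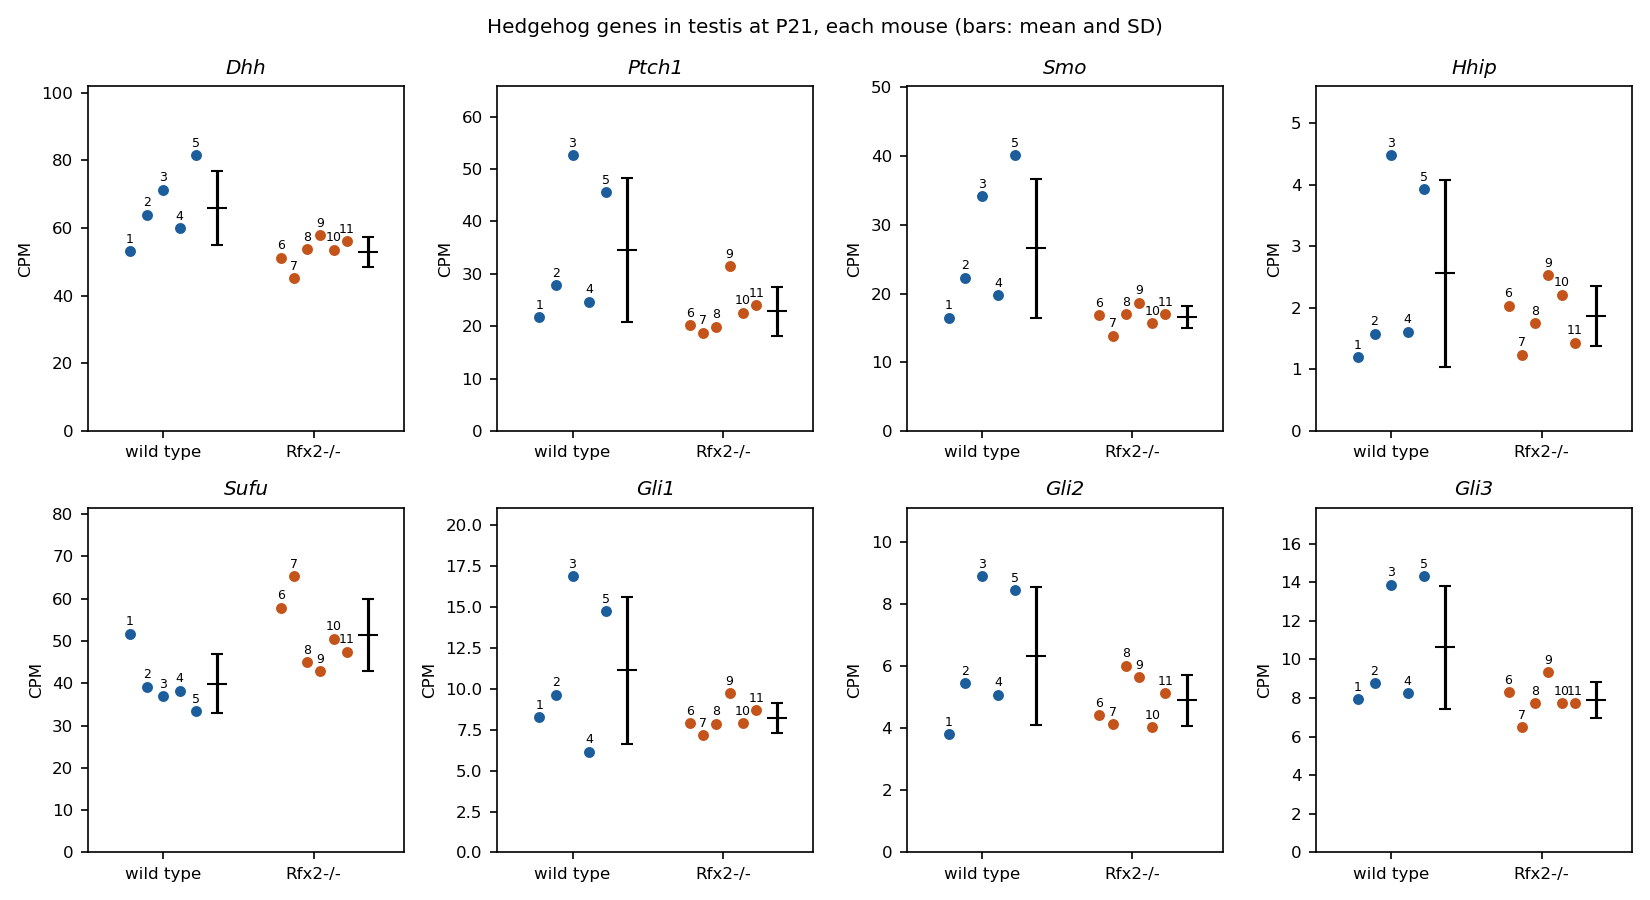
Each point is 1 mouse, labelled with its replicate number, and the y axis of each panel is the level in CPM of Dhh, Ptch1, Smo, Hhip, Sufu, Gli1, Gli2 or Gli3 in wild type (blue, n = 5) and Rfx2-/- (orange, n = 6) testis, with horizontal and vertical bars for mean and SD. Wild type replicates 3 and 5 are the highest pair in 7 of the panels and the lowest pair for Sufu.

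Dhh (ENSMUSG00000023000), the ligand gene, is on chromosome 15 (minus strand, GRCm38, 98891152 to 98898540). Wild type replicates 1 to 5 showed 53.1, 63.9, 71.3, 60.0 and 81.5 CPM of Dhh, and in the 6 Rfx2-/- mice the lowest value was 45.2, the median 53.6 and the highest 57.8 CPM. The Rfx2-/- values sat within or just below the lower end of the wild type range, with 2 of 6 mice below the lowest wild type mouse. Wild type mice averaged 66.0 ± 10.9 CPM (SD, n = 5), compared with 52.9 ± 4.41 CPM (SD, n = 6) without Rfx2. The log2 fold change was -0.32 (standard error 0.11, 95% interval -0.55 to -0.09), with an adjusted p of 0.0590 from edgeR's quasi-likelihood test, which did not pass. Without wild type replicates 3 and 5 the log2 fold change was -0.15 (edgeR adjusted p = 0.336). Dhh overlaps Rhebl1 in the annotation. Reads on exons of different genes were left out of the counts, and whether counting used strand is not given in the sources used here.

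Ptch1 (ENSMUSG00000021466, chromosome 13 from 63508328 to 63573598, minus strand) encodes the receptor and is also a target of the pathway. Wild type replicates 1 to 5 showed 21.7, 27.9, 52.7, 24.7 and 45.5 CPM. The 6 Rfx2-/- mice had a lowest value of 18.8, a median of 21.4 and a highest value of 31.4 CPM, the last in replicate 9. Replicates 3 and 5 lay above every Rfx2-/- mouse, while the other 3 wild type mice lay within the Rfx2-/- range. This gave a log2 fold change of -0.60 (standard error 0.24, 95% interval -1.12 to -0.07, edgeR adjusted p = 0.0899), and without replicates 3 and 5 it was -0.11 (edgeR adjusted p = 0.752).

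Smo (ENSMUSG00000001761, chromosome 6 from 29735503 to 29761365, plus strand) encodes the membrane protein that passes the signal on. In wild type replicates 1 to 5 its levels were 16.5, 22.3, 34.2, 19.8 and 40.2 CPM, and the lowest, median and highest of the 6 Rfx2-/- values were 13.9, 16.9 and 18.7 CPM. Of the wild type mice, only replicate 1 lay inside the Rfx2-/- range. Mean levels were 26.6 ± 10.1 CPM (SD, n = 5) in wild type against 16.5 ± 1.61 CPM (SD, n = 6) in the mutant. Its log2 fold change of -0.69 (standard error 0.21, 95% interval -1.15 to -0.22) was the lowest of the 8, with an adjusted p of 0.0512 in edgeR. Without replicates 3 and 5 the value was -0.23 (edgeR adjusted p = 0.260).

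Hhip (ENSMUSG00000064325, chromosome 8 from 79965851 to 80058006, minus strand) encodes a surface protein that binds Hedgehog ligands and keeps them from the receptor. It was the least counted of the 8, with 30 to 158 reads per library. Levels in wild type replicates 1 to 5 were 1.20, 1.58, 4.49, 1.61 and 3.93 CPM, and the lowest, median and highest Rfx2-/- values were 1.24, 1.90 and 2.53 CPM. Outside replicates 3 and 5, the wild type mice lay at the lower end of the Rfx2-/- range or under it. The fitted log2 fold change was -0.46 (standard error 0.36, 95% interval -1.25 to 0.34, edgeR adjusted p = 0.341), and it turned to 0.36 without replicates 3 and 5 (edgeR adjusted p = 0.402).

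Sufu (ENSMUSG00000025231, chromosome 19 from 46396896 to 46488804, plus strand) encodes the cytoplasmic inhibitor of the GLI factors and was the member with a positive fold change. In wild type replicates 1 to 5 it stood at 51.7, 39.2, 37.0, 38.3 and 33.5 CPM, and its lowest, median and highest Rfx2-/- values were 42.8, 49.0 and 65.3 CPM. Wild type replicate 1 lay within the Rfx2-/- range, and the other 4 wild type mice lay under it. Sufu had a log2 fold change of 0.37 (standard error 0.14, 95% interval 0.07 to 0.66, edgeR adjusted p = 0.0750). Without replicates 3 and 5 it was 0.27 (edgeR adjusted p = 0.309).

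The GLI factors turn the signal into transcription, GLI1 as an activator that is itself a target gene, GLI2 mainly as an activator and GLI3 mainly as a repressor in its processed form. Gli1 (ENSMUSG00000025407, chromosome 10 from 127329882 to 127341974, minus strand, overlapping Arhgap9) stood at 8.28, 9.65, 16.9, 6.17 and 14.7 CPM in wild type replicates 1 to 5, with a lowest, median and highest value of 7.18, 7.91 and 9.74 CPM in Rfx2-/- mice. Wild type replicate 4 lay under all Rfx2-/- mice and replicates 3 and 5 above all of them. The log2 fold change of Gli1 was -0.44 (standard error 0.23, 95% interval -0.95 to 0.07, edgeR adjusted p = 0.166).

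Gli2 (ENSMUSG00000048402, chromosome 1 from 118834132 to 119053619, minus strand) stood at 3.81, 5.45, 8.89, 5.08 and 8.46 CPM in wild type replicates 1 to 5, with a lowest, median and highest value of 4.04, 4.78 and 6.01 CPM in Rfx2-/- mice. Wild type replicates 2 and 4 lay within the Rfx2-/- range, replicate 1 under it and replicates 3 and 5 above it. Gli2 had a log2 fold change of -0.37 (standard error 0.22, 95% interval -0.86 to 0.12, edgeR adjusted p = 0.215).

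Gli3 (ENSMUSG00000021318, chromosome 13 from 15463235 to 15730026, plus strand) stood at 7.93, 8.78, 13.9, 8.27 and 14.3 CPM in wild type replicates 1 to 5, with a lowest, median and highest value of 6.48, 7.74 and 9.34 CPM in Rfx2-/- mice. Of the Rfx2-/- mice, 4 lay under the lowest wild type mouse. Gli3 had a log2 fold change of -0.43 (standard error 0.18, 95% interval -0.83 to -0.04, edgeR adjusted p = 0.0981). Without replicates 3 and 5 the log2 fold changes of Gli1, Gli2 and Gli3 were 0.04, 0.05 and -0.07, with edgeR adjusted p-values of 0.902, 0.909 and 0.779.

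Levels of different genes were compared as RPKM, that is, CPM divided by the length of the merged exons in kilobases. Dhh was the highest in wild type, at 15.0 ± 2.48 RPKM (SD, n = 5), followed by Smo at 7.03 ± 2.67, Sufu at 5.97 ± 1.04 and Ptch1 at 4.18 ± 1.66. The GLI factors followed at 2.64 ± 1.07 RPKM for Gli1, 1.27 ± 0.381 for Gli3 and 0.939 ± 0.330 for Gli2, and Hhip was the lowest at 0.282 ± 0.168. The wild type ranges of neighbours in this order overlapped, except those of Dhh and Smo and of Gli2 and Hhip. Within a mouse the order was steadier, since each of the 5 wild type mice had more Dhh than Smo, more Ptch1 than Gli1, more Gli1 than Gli3, more Gli3 than Gli2 and more Gli2 than Hhip. Smo, Sufu and Ptch1 changed places between mice, with 3 of 5 mice following the order of the means at each step. In Rfx2-/- testis the means were 12.0 ± 1.002 RPKM (SD, n = 6) for Dhh and 7.69 ± 1.28 for Sufu. The lengths come from an annotation other than the authors' own, so that these levels are approximate.

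**Figure D2:**
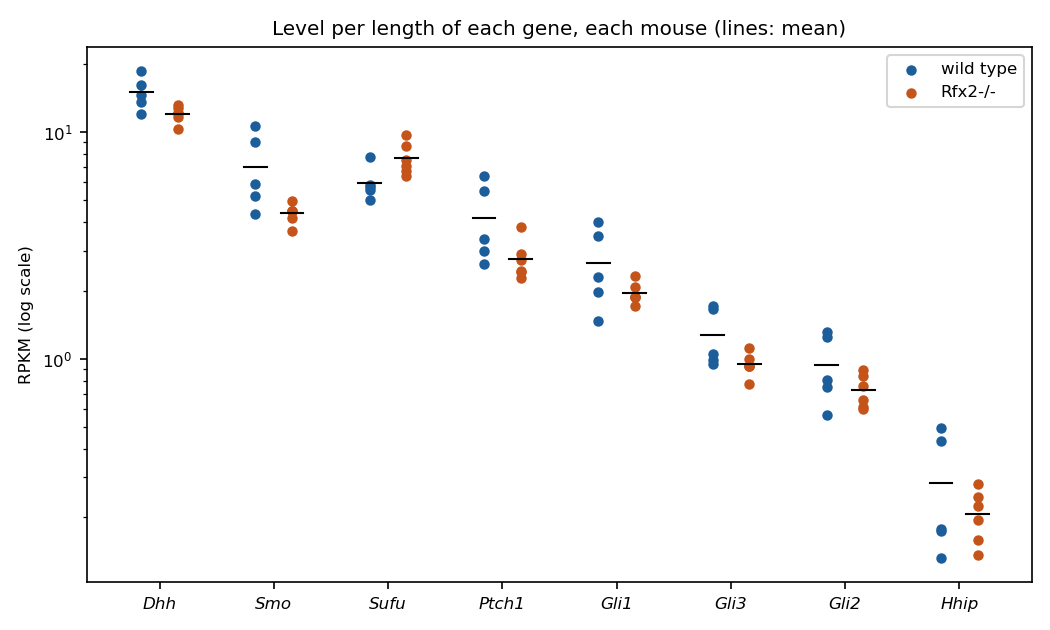
Level per length (RPKM, log scale) of the 8 genes in each wild type (blue, n = 5) and Rfx2-/- (orange, n = 6) mouse, with a line at each mean and genes ordered by wild type mean. Dhh is highest at a mean of 15.0 RPKM and Hhip lowest at 0.282 RPKM in wild type, and the values of Smo, Sufu and Ptch1 overlap.

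Beyond these genes, 46 further genes of the pathway were counted by role, of which 44 had enough reads to be tested. Other genes of the pathway are not reported here and stand outside these counts, so the counts are not those of the whole pathway. Of the 44, 0 were called lower and 0 higher in Rfx2-/- testis by edgeR, beside 1.94% and 0.73% of all genes. Fold changes were below 0 for 26, beside 54.8% of all genes, and above 0 for 18. Their median log2 value was -0.18, beside -0.05 over all genes. This split moved with the setting, to 21 below and 23 above 0 with a median of 0.01 without wild type replicates 3 and 5, to 22 and 22 with a median of 0.0024 with the Sertoli marker score explained below as a covariate, and to 33 and 11 with a median of -0.35 with total counts as library sizes, where the median over all genes was -0.22. At an unadjusted p under 0.05, 17 of the 44 passed, 11 lower and 6 higher. Over all genes 41.8% passed, 23.7% lower and 18.1% higher. DESeq2, which called 13.1% of all genes, called 2 lower and 4 higher. Voom, which called 6.66%, called 0 lower and 1 higher. These shares also stand beside the counts by role that follow. Wild type replicates 3 and 5 were the highest pair for 21 of the 44 and the lowest pair for 11. For each role one gene is named by its reads alone, as the gene with the highest mean CPM among those counted here, which is not per length and so no ranking of levels.

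The other ligand genes were low. Shh, the ligand best known from limb and neural tube, was below the count filter and not tested, with 1.27 CPM in wild type replicate 1, at most 0.280 CPM in the other wild type mice and at most 0.311 CPM in Rfx2-/- mice. Ihh, the ligand best known from growing cartilage, averaged 0.771 ± 0.258 CPM (SD, n = 5) in wild type against 0.659 ± 0.205 CPM (SD, n = 6) in the mutant (log2 fold change -0.23, edgeR adjusted p = 0.552). Of the 6 genes for lipid attachment and release of the ligand, 0 were called, and 0 had an unadjusted p under 0.05 in edgeR, DESeq2 calling 0 as well. Scube3, with the highest mean CPM of them, encodes a secreted protein of the family that carries released ligand, and had a log2 fold change of -0.02 (edgeR adjusted p = 0.921), whose sign turned in several alternatives.

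None of the 5 genes of receptors and co-receptors counted here was called by edgeR, and 3 had an unadjusted p under 0.05, all lower. Cdon, with the highest mean CPM of those counted, encodes a co-receptor that helps the ligand to bind PTCH1. Gas1, encoding another such co-receptor, is named because its value was seen to pass an adjusted p of at most 0.05. The log2 fold changes of Gas1 and Cdon were -0.57 (edgeR adjusted p = 0.0412) and -0.61 (edgeR adjusted p = 0.0309). DESeq2 called both lower, with adjusted p-values of 0.00814 and 0.00480, and voom called neither. Wild type replicates 3 and 5 were the highest pair for both genes. Without them Cdon was at -0.32 (edgeR adjusted p = 0.0955), and with the Sertoli marker score as a covariate also at -0.32 (edgeR adjusted p = 0.309).

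None of the 6 regulators acting near SMO that were counted was called by edgeR, DESeq2 or voom, with 2 at an unadjusted p under 0.05, both lower. Iqce, with the highest mean CPM among them, encodes a ciliary protein that tethers the EVC complex, and had a log2 fold change of 0.34 (edgeR adjusted p = 0.272) and of -0.25 with the Sertoli marker score as a covariate. Of the 7 ciliary regulators of GLI, 0 were called by edgeR, DESeq2 or voom and 3 had an unadjusted p under 0.05, 2 lower and 1 higher. Inpp5e, which encodes a phosphoinositide phosphatase of the ciliary membrane, had the highest mean CPM of these 7 and a log2 fold change of 0.34 (edgeR adjusted p = 0.221). Inpp5e overlaps Pmpca in the annotation.

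The 14 genes listed under the role of GLI kinases and proteolysis had 10 fold changes above 0 and 4 below, with a median log2 value of 0.07. None was called by edgeR, while 6 had an unadjusted p under 0.05, 1 lower and 5 higher. Cul3, with the highest mean CPM here, encodes the scaffold of a ubiquitin ligase that degrades GLI factors through its adaptor SPOP, and had a log2 fold change of 0.38 (edgeR adjusted p = 0.0468). All 4 of the genes that DESeq2 called higher were in this role, Cul3 (adjusted p = 0.00521), Stk36 (0.000364), Csnk1a1 (0.00360) and Gsk3a (0.00913). Csnk1a1 and Gsk3a, named after their values were seen, encode casein kinase 1 alpha and glycogen synthase kinase 3 alpha, of the families that phosphorylate GLI factors, and had log2 fold changes of 0.32 and 0.25 in DESeq2. Gsk3a overlaps 9130221H12Rik in the annotation. Stk36, also called Fused, encodes a kinase needed for motile cilia in mice, and is named because its fold change, seen afterwards, was the highest of the list. Its mean was 85.3 ± 35.6 CPM (SD, n = 5) in wild type against 177 ± 35.6 CPM (SD, n = 6) in the mutant, a log2 fold change of 1.06 (standard error 0.25, edgeR adjusted p = 0.0253). Voom also called Stk36, and edgeR called it without wild type replicate 1 (adjusted p = 0.00417).

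All 5 other target genes that could be tested had fold changes below 0, and 0 were called by edgeR, DESeq2 or voom, with 3 at an unadjusted p under 0.05. Ccnd1, encoding the cell cycle protein cyclin D1, had the highest mean CPM of these targets, with a log2 fold change of -0.39 (edgeR adjusted p = 0.0571). Bcl2, encoding an inhibitor of apoptosis, is named because its genotypes were seen not to overlap, as was so in this direction for 5.2% of all genes. It had a log2 fold change of -0.75 (edgeR adjusted p = 0.0322), and was the only one of the 44 further genes to lie wholly lower. The genotypes were also apart, in the other direction, for 2 of the 44, where 6.5% of all genes were: Rab23, encoding a small GTPase that restrains the pathway, at a log2 fold change of 0.31 (edgeR adjusted p = 0.0531), and Csnk1a1 at 0.30 (edgeR adjusted p = 0.0446), both named for this after their values were seen. Wild type replicates 3 and 5 were the highest pair for each of the 5 target genes tested, and the lowest pair for Rab23 and Csnk1a1.

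**Figure D3:**
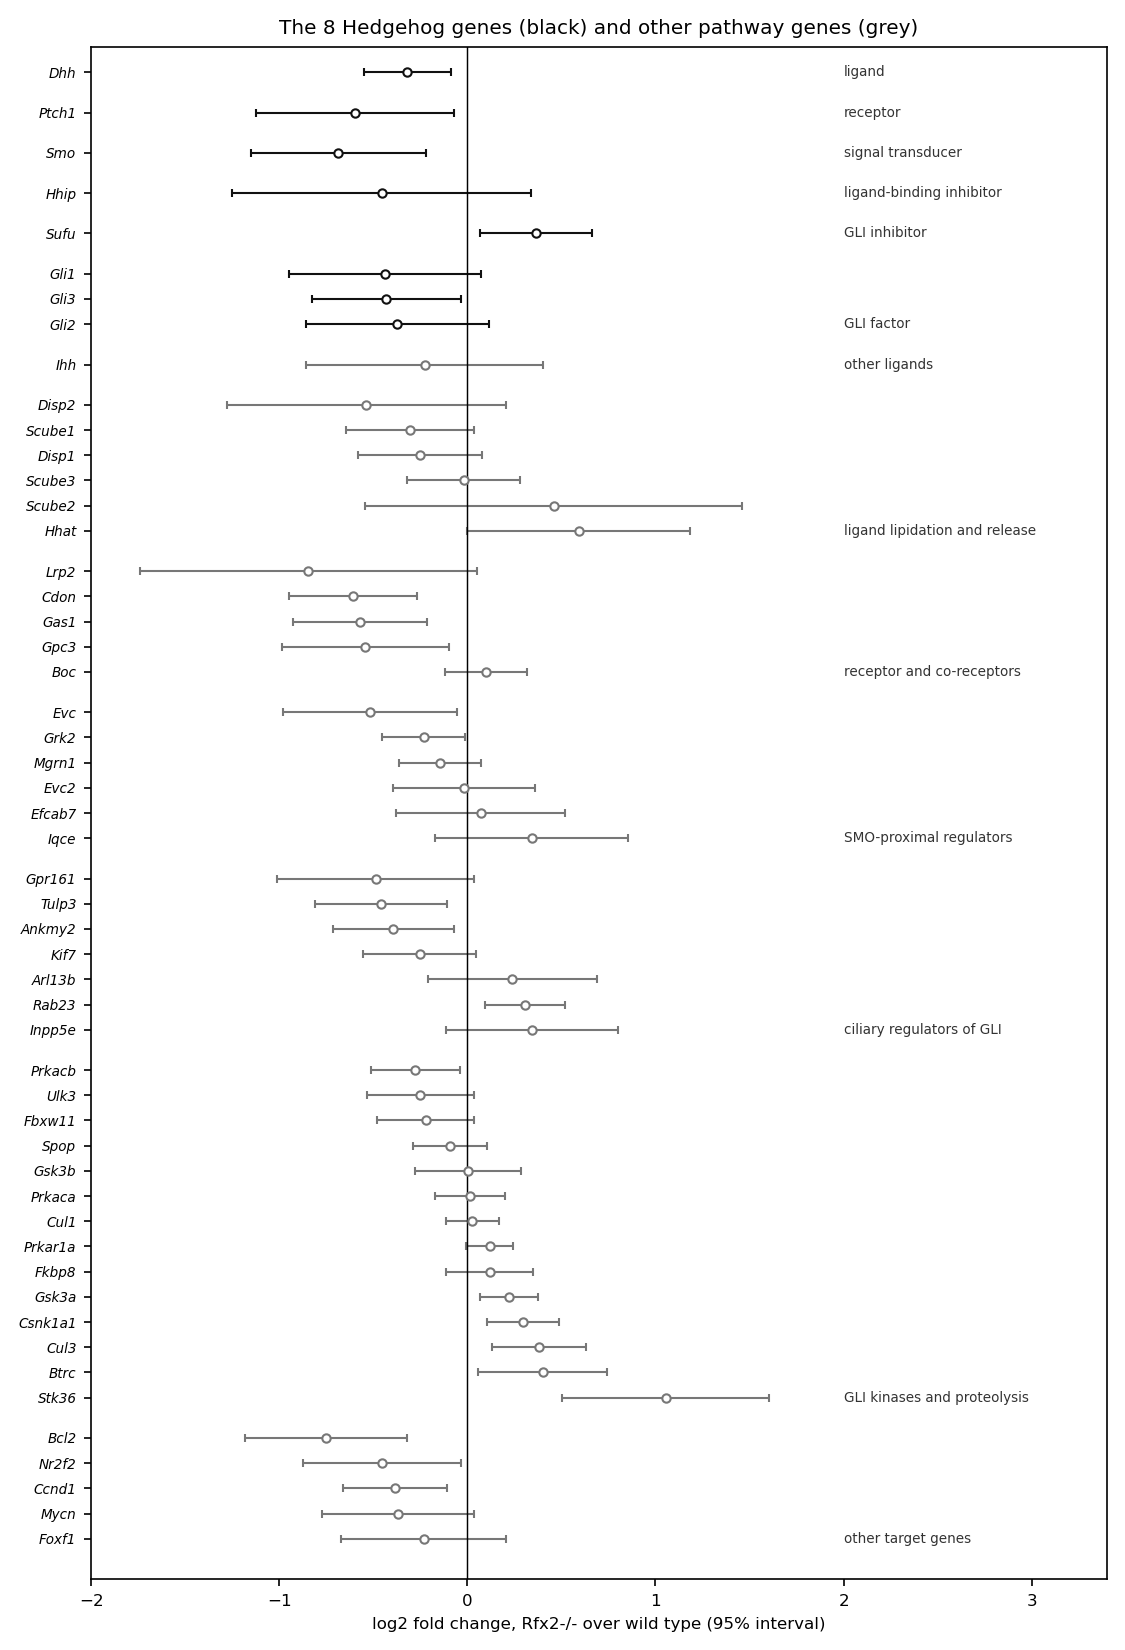
Log2 fold change of Rfx2-/- over wild type (x axis) with its 95% interval from edgeR for the 8 genes (black) and 44 other pathway genes tested (grey), grouped by role. The median is -0.44 for the 8 genes and -0.18 for the others, and no gene plotted reached an adjusted p of 0.01 or less.

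Because the genes act in different cells, their levels were set beside marker scores, each the mean log2 CPM of a cell type's marker genes. Markers of each cell type were detected in every testis, and the labelled tissue had high levels of those of spermatocytes, whose summed level was 1471 to 2099 CPM in wild type and 1724 to 1880 CPM in Rfx2-/- testis. The Sertoli score was lower by 0.32 in Rfx2-/- testis on the log2 scale, with p = 0.0303 by a two-sided exact permutation test and 0.107 after Benjamini-Hochberg adjustment over 9 cell types, while the smallest p this design allows is 0.00433. All 9 Sertoli markers had fold changes below 0, none was called by edgeR, and their summed level was 854 to 1539 CPM in wild type and 822 to 1035 CPM in Rfx2-/- testis. The score of the interstitial stroma differed by -0.56 (exact permutation p = 0.00866, adjusted 0.0779), with all 5 markers below 0, 0 called, and a summed level of 219 to 372 CPM in wild type and 170 to 225 CPM in Rfx2-/- testis. Of the other 7 scores, those of endothelium, macrophages, spermatogonia and Leydig cells were lower by 0.33, 0.42, 0.32 and 0.52, those of peritubular myoid cells, spermatocytes and round spermatids were higher by 0.05, 0.14 and 0.97, and the exact permutation test gave adjusted p-values of 0.107 to 0.749. The round spermatid score varied widely between mice, with an SD of 2.69 in wild type (n = 5) and 1.87 in Rfx2-/- testis (n = 6). Its markers summed to 5.16 to 262 CPM in wild type and 18.1 to 317 CPM in Rfx2-/- testis, and some had under 3 reads in a mouse. Most markers went against the higher scores of peritubular myoid cells and round spermatids, with 4 of 6 below 0 in each. For spermatocytes 2 of 5 were below 0. All 5 markers each of endothelium and macrophages, 4 of 5 of spermatogonia and 7 of 8 of Leydig cells were below 0. Among the markers of these 7 cell types, 1 of 8 for Leydig cells was called lower by edgeR and none of the others was called. Without wild type replicates 3 and 5 the Sertoli and stroma scores differed by -0.15 and -0.28, those of endothelium, macrophages, spermatogonia and Leydig cells by -0.073, -0.22, -0.094 and -0.59, and those of peritubular myoid cells, spermatocytes and round spermatids by 0.17, 0.052 and -0.34, with exact permutation adjusted p-values of 0.429 to 0.833. With fewer wild type mice, here and below, the smallest p that the permutation test can give is larger than 0.00433. The part of these cell types in the fold changes of the Hedgehog genes was not tested beyond the comparisons that follow.

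In wild type the Sertoli score was 5.88, 6.26, 6.46, 6.17 and 6.59 in replicates 1 to 5, so that the mice stood in the same order for the score as for Dhh. Dhh minus the Sertoli score was -0.241 ± 0.0592 (SD, n = 5) in wild type and -0.229 ± 0.0176 (SD, n = 6) in Rfx2-/- testis. The difference of 0.012 on the log2 scale had p = 0.688 in a two-sided exact permutation test. It was -0.0055 without replicates 3 and 5, and -0.05 when Sox9, Wt1 and Fshr alone stood for Sertoli cells, with exact permutation p-values of 0.810 and 0.117.

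**Figure D4:**
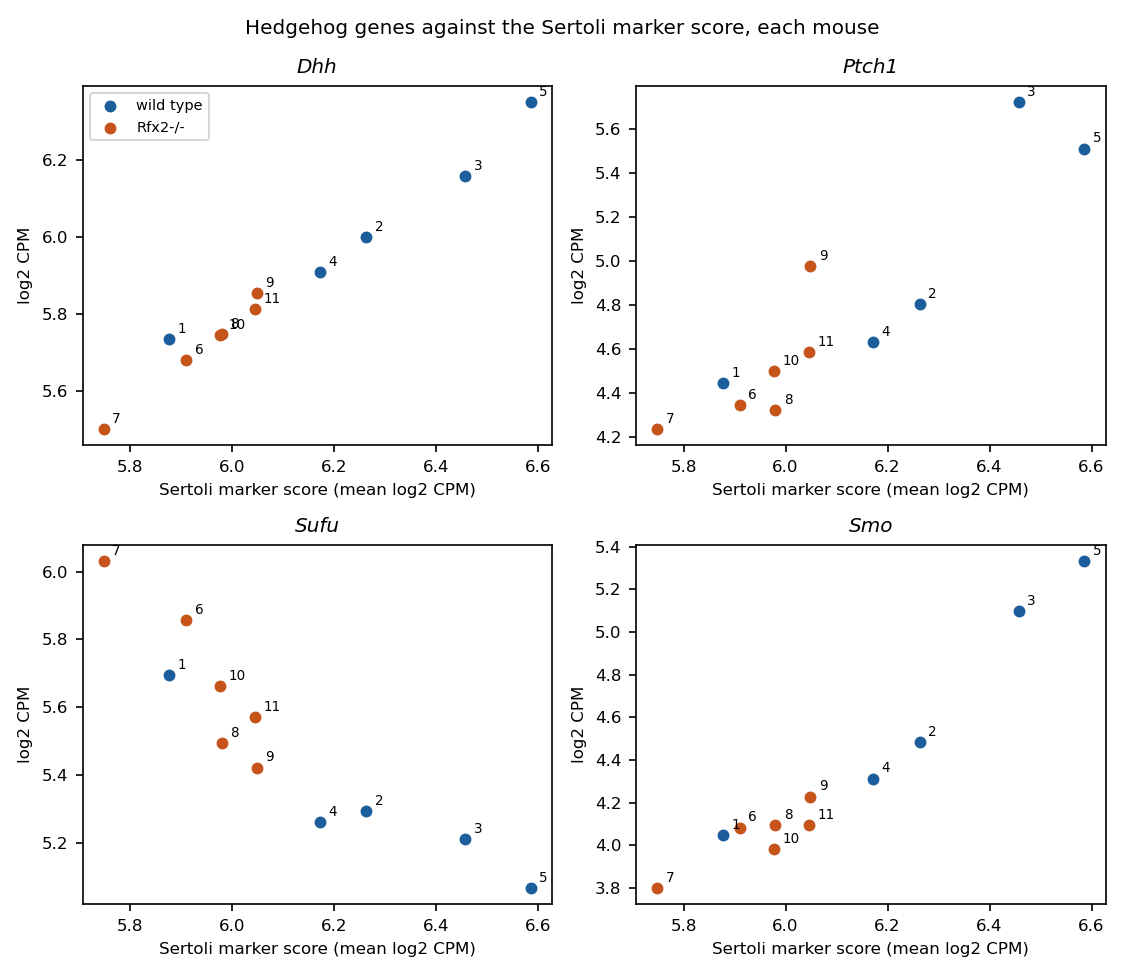
Log2 CPM of Dhh, Ptch1, Sufu and Smo (y axes) against the Sertoli marker score (x axes, mean log2 CPM of 9 markers) in each wild type (blue, n = 5) and Rfx2-/- (orange, n = 6) mouse, labelled by replicate. Mice of both genotypes lie along a common line for Dhh, with Dhh minus the score at -0.241 in wild type and -0.229 in Rfx2-/- testis. Sufu is lowest in the wild type mouse with the highest score. That mouse also had the lowest round spermatid score, -1.27. Within each genotype, the mice stood in the same order for Sufu as for the round spermatid score. The part of either score in Sufu was not tested.

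Gli1, Ptch1 and Hhip, the classical target genes, were set against the mean of the Leydig and peritubular myoid scores, which leaves out the interstitial stroma. Their differences between genotypes on this scale were -0.11, -0.29 and -0.05, with exact permutation p-values of 0.641, 0.355 and 0.883, each 0.883 after adjustment over the 3. The spread between mice was wide, with SDs of 0.53, 0.62 and 0.90 in wild type (n = 5) and 0.35, 0.42 and 0.59 in Rfx2-/- testis (n = 6). Wild type replicates 3 and 5 had the highest values of all mice for each of the 3 genes on this scale too. Without them the differences were 0.26, 0.08 and 0.52 (exact permutation adjusted p = 0.464, 0.857 and 0.464).

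With the Sertoli score as a covariate in edgeR, the log2 fold changes of the 8 genes were 2 below and 6 above 0, with a median of 0.05 and adjusted p-values of 0.275 to 0.906. Dhh was at -0.02, Ptch1 at 0.06, Smo at -0.04, Hhip at 0.59 and Sufu at 0.05 in this fit. Gli1, Gli2 and Gli3 were at 0.10, 0.25 and 0.03. Without wild type replicates 3 and 5 and without a covariate, 4 lay below and 4 above 0, with a median of -0.01 and adjusted p-values of 0.260 to 0.909. The Sertoli score was itself lower in Rfx2-/- testis, so genotype and covariate partly move together in the first of these fits, and the second compares 3 wild type mice with 6.

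**Figure D5:**
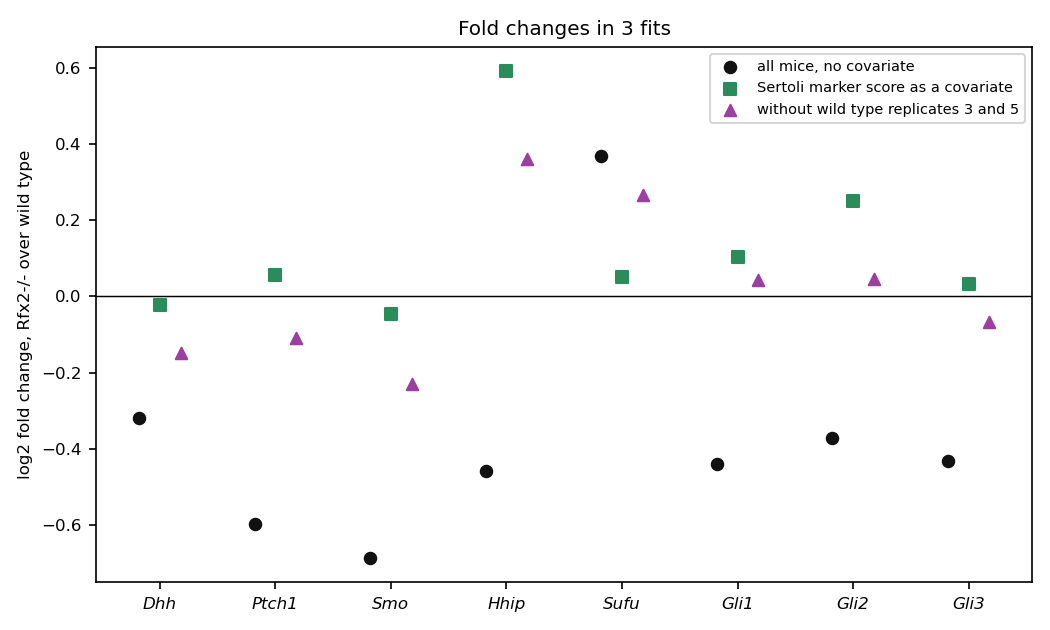
Log2 fold change of Rfx2-/- over wild type (y axis) for the 8 genes (x axis) from edgeR in all mice (circles), with the Sertoli marker score as a covariate (squares) and without wild type replicates 3 and 5 (triangles). The median of the 8 genes moves from -0.44 to 0.05 and -0.01.

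Among the 15744 other genes tested, those with levels most like Dhh over the 11 mice included Fbxo21 and Lpcat1, with Pearson's r of log2 CPM of 0.991 and 0.988 and Spearman's rho of 0.991 and 0.973. Without wild type replicates 3 and 5, the mice farthest from the median of Dhh, r was 0.977 and 0.962. The genes most like Gli1 were Heyl, Hspg2 and Tnnt1, with r of 0.978, 0.971 and 0.968 and rho of 0.918, 0.900 and 0.845, and r was 0.961, 0.845 and 0.870 without the same mice. These are descriptions over mice of both genotypes, which differed in library size and marker scores, and the highest of many correlations are given. The part of these differences in the correlations was not tested.

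Promoters were searched on both strands for the GLI core site GACCACCCA and for GTTGCCA, which is only a part of the RFX site. The paper describes the RFX site as an inverted repeat, and the whole repeat was not searched for. The promoters were RefSeq windows of 300 bases on GRCm38.p6, from 250 bases before to 50 bases after each start. The GLI letters were in 0.253% and the RFX letters in 4.38% of all 32851 promoters. Promoters were given for 7 of the 8 genes, and neither set of letters was in them. Among 50 promoters of 36 further pathway genes, the GLI letters were in 0 and the RFX letters in 3, of Disp1 and Prkar1a. The stretches are shown because they hold the RFX letters found in the pathway. These letters are in capitals with 10 bases on each side, 5′ to 3′ on the strand of the gene. In Prkar1a the bases after them include ggcaac, which is GTTGCC read on the other strand, and in Disp1 they do not.
Disp1, chr1:183147640-183147666, minus strand: tgtaccagctGTTGCCAttattaaggc
Prkar1a, chr11:109650852-109650878, plus strand, shared by its overlapping promoters: cgcctttaagGTTGCCAaggcaaccgc
Disp1 encodes the membrane protein that releases the ligand and had a log2 fold change of -0.25 (edgeR adjusted p = 0.215). Prkar1a encodes a regulatory subunit of protein kinase A, which phosphorylates GLI factors, and had a log2 fold change of 0.12 (edgeR adjusted p = 0.135). A match is no evidence of binding, and a promoter without the letters was not shown to lack an RFX site.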

How the data were processed

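RNA was measured in whole testes of 5 wild type and 6 Rfx2-/- mice at P21. According to the submitters' processing notes, CASAVA 1.8.2, STAR 2.4 and featureCounts 1.4.6 were used with the genome build GRCm38. The authors deposited raw counts, without normalization: single reads were mapped, those with more than 1 position discarded, and reads on merged exons of protein coding isoforms counted, except where exons of different genes were hit. Read length and aligner are given differently in different paragraphs of the methods, and the authors tested with DESeq. Discarding such reads can lower genes with near-identical copies.

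Counts were analysed here in R 4.3.3 with edgeR 4.0.16 (filterByExpr, TMM, glmQLFit, glmQLFTest, no covariate), DESeq2 1.42.0 and limma 3.58.1. Genes were called at an adjusted p of at most 0.01 over all 15745 genes tested, at any fold change. A count of 3, the floor of a library, was 0.0852 to 0.139 CPM, which covers counting error only. Scores used log2 CPM with a prior count of 2 and two-sided exact permutation tests. Each gene had 1 value per mouse, and the p-values measure the spread between mice. The tests were tried on simulated counts. Gene positions and lengths came from GENCODE M21, promoters from RefSeq. Tables were computed with pandas 2.3.3 and SciPy 1.17.1 and plotted with matplotlib 3.10.9 under Python 3.11.15.

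Named were all 8 genes, every gene of the pathway list called by edgeR (none of those reported), the reported gene of each role with the highest mean CPM, and, of the 3 genes most correlated with Dhh and with Gli1, those reported. Certain genes are not reported here, and the pathway counts leave them out. Others are named as chosen after their values were seen. The 8 genes, the lists and the tests were chosen with earlier results of these data known. Alternatives were other library scaling, DESeq2, voom, a robust prior, other count filters and thresholds, Sertoli or Leydig scores as covariates, another prior count, 3 Sertoli markers alone, and each mouse left out in turn. Leaving out wild type replicates 3 and 5 together was added after seeing the data. Day 30 mice and ChIP-Seq data were not analysed here.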

Additional observations from a re-analysis of the deposited data

Results flagged for a closer look

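Of 56 sets of values tested for a mouse far from the others of its genotype, 1 passed Dixon's criterion at 95%, where chance passes about 1 in 20. Dhh minus the Sertoli marker score was -0.195 in Rfx2-/- replicate 9 and -0.248 to -0.231 in the other 5 Rfx2-/- mice, on the log2 scale (ratio of gap to range 0.690, critical value 0.625). The same mouse had the highest Dhh and Ptch1 of its genotype, at 57.8 and 31.4 CPM.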

How the results depend on the processing

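No paired analysis was possible because the labels give no litters or pairs. The paper states that littermates of the same age were taken where possible. None of the 8 genes was called under any other scaling, test, filter, covariate or omitted mouse, while 1 (Smo, lower) passed an unadjusted p of at most 0.01. With adjusted p-values up to 0.05 accepted, 0 passed in edgeR with all mice, 3 each by DESeq2 and voom, 5 without wild type replicate 1, 2 with total counts, and 1 each with a mean count of at least 50, the Leydig covariate or without wild type replicate 4. Shares of all genes at this threshold are given above for edgeR with all mice, DESeq2 and voom only. For an unadjusted p of at most 0.01 the share of all genes is not given, so counts at that threshold, here and below, have no background beside them. Of the 44 other pathway genes, 18 passed without wild type replicate 1 and 9 with total counts, against 6 in edgeR with all mice. With total counts as library sizes, the median over all genes went from -0.05 to -0.22 on the log2 scale and that of the 8 genes from -0.44 to -0.64. Of the other pathway genes counted, 2 were called lower by DESeq2, 3 with adjusted p-values up to 0.05 and 3 with unadjusted p-values up to 0.01, and the number called higher was 4 by DESeq2, 1 by voom, 3 and 5 at these thresholds, 0 with the Sertoli covariate or without wild type replicates 3 and 5, and 0 to 1 with each mouse left out in turn (1, Stk36, without wild type replicate 1). The sign turned with the Sertoli covariate for Ptch1 (0.057), Hhip (0.59), Gli1 (0.10), Gli2 (0.25), Gli3 (0.034), Inpp5e (-0.17) and Iqce (-0.25), with voom for Hhip (0.12), Ihh (0.062) and Scube3 (0.16), and without wild type replicates 3 and 5 for Hhip (0.36), Gli1 (0.043), Gli2 (0.046) and Scube3 (0.088). Scube3 also turned with DESeq2 size factors (0.0072), the DESeq2 test (0.0070), the Leydig covariate (0.078) and single mice left out (-0.094 to 0.092). With total counts the score difference was -0.11 for peritubular myoid cells and -0.018 for spermatocytes. It was -0.34 for round spermatids without wild type replicates 3 and 5, and -0.061 to 0.10 for peritubular cells with single mice left out, negative without wild type replicate 4. Dhh minus the Sertoli score differed by -0.0027 to 0.036 with single mice left out, by -0.0055 without replicates 3 and 5 and by -0.051 with 3 markers alone. For the targets against Leydig and peritubular scores, the ranges with single mice left out were -0.26 to 0.029 for Gli1, -0.50 to -0.15 for Ptch1 and -0.33 to 0.17 for Hhip, and without replicates 3 and 5 the values were 0.26, 0.076 and 0.52. The cause of these turns was not tested. Among the 8 genes, depth limits Hhip most, at 30 to 158 reads per library.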
